A study of Oryza sativa with 3 samples.

Results

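A set of 207 rice loci, of 29689 with a probe on the array, gave a signal well above background in the vanadium channel on all 3 arrays and in the water channel on none. The array measured total RNA from roots of 6-day-old seedlings of rice (Oryza sativa) cultivar TN-67, exposed either to 1 mM vanadium or to water. Each of the 3 arrays carried the RNA of 1 biological replicate of both treatments, vanadium in red (Cy5) and water in green (Cy3), and the dyes were never swapped. The labels give neither the vanadium compound nor the length of exposure.

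Vanadium is a transition metal whose vanadate form resembles phosphate and inhibits phosphatases and ion-pumping ATPases. Roots meet such a metal first, and many stress-inducible plant genes give little or no transcript in unstressed tissue. A transcript of that kind is hard to describe by a ratio, because its level in the control lies near the background of the array. The array files name each probe by rice locus number and sequence record and do not pair loci with gene names, and the gene table at hand does not hold these locus numbers. Loci are therefore given by number, without roles.

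The members were chosen on 3 measured values. A member needs a probe that the scanner software marked as well above background in red on every array and in green on none. That probe must also have a mean net vanadium signal of at least 150, where net signal is the median brightness of the spot minus the median of its local background, in scanner units. A locus was dropped if another of its probes was well above background in green on all 3 arrays. Of 41889 gene probes, 30250 passed this mark in red on every array, 608 of these passed it in green on none, and 226 of those also reached 150. They lay on 220 loci, and 13 were lost to the clause on other probes, which left 207 loci with 213 member probes. No member probe had a spot marked as an outlier, and none was saturated. Since detection, signal and treatment all entered the choice, the values below describe the members, and no p-value is given for them.

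The floor of detection differed between the channels. The 153 negative control spots, which are designed to match no transcript, read 3, 4.5 and 4 (median net signal, replicates 1, 2 and 3) under vanadium, against 52, 97 and 93 under water. Among gene spots well above background, the 5th percentile of net signal was 33, 75 and 75 in the vanadium channel and 99, 182 and 196.5 in the water channel. A spot in the water channel thus had to be brighter to be marked as seen, and net signals of the 2 dyes are not on one scale. With the channels exchanged, the same rule gave 54 loci seen only in water, and none at a minimum of 300, where 71 loci were seen only under vanadium. The unequal floors move with the treatment on every array, so the numbers of loci in the 2 directions cannot be told apart from the difference between the dyes.

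Member probes were dim in water but not at zero. Their median net water signals were 69, 119.5 and 116.5 on replicates 1, 2 and 3, all above the medians of the negative control spots. Of the 213 member probes, 43, 90 and 96 lay at or below the 95th percentile of these control spots. By a laxer mark of the scanner software, which asks only for a signal significantly above background, 52 member probes were positive in water on all 3 arrays, 45 on 2, 58 on 1 and 58 on none. Not being well above background in water is therefore a bound on the level, and the loci are called seen only under vanadium in that sense alone.

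The member with the highest vanadium signal was Os01g0373700, with net signals of 2220, 3316 and 3273 under vanadium on replicates 1, 2 and 3, against 72.5, 120 and 116 in water. Os01g0695800 had net signals of 1848, 3485 and 2555 under vanadium, against 72, 129.5 and 132 in water. At both loci every array was far brighter under vanadium than any array was in water. Os08g0137900 stood at 1254.5, 2911 and 2178 under vanadium, against 82.5, 153 and 121.5 in water. A second probe of this locus read almost the same, with 1325, 2478.5 and 2128 under vanadium against 87.5, 128.5 and 134 in water, where it was well above background on 1 array and so did not meet the rule itself. The 2 probes were designed to different records, and the locus is among the few members measured more than once.

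Os05g0442400 gave 1163, 2813 and 1589 under vanadium, against 79, 123 and 111 in water. Net vanadium signals of Os03g0190300 were close across the arrays, at 1375, 1621 and 1658, against 87, 143 and 135.5 in water. Its mean log2 ratio of normalized signals was 3.98 ± 0.48 (SD, n = 3 arrays). Those of Os02g0719600 were likewise close, at 1279.5, 1528.5 and 1236.5 under vanadium, against 70.5, 118 and 132.5 in water. Its log2 ratio was uneven, at 4.64, 3.75 and 3.52 on replicates 1, 2 and 3. The SD was 0.59, against a median of 0.31 over members. The other loci of the highest 15 were Os04g0179700, which was uneven and is described further on, Os01g0597600, Os09g0483200, Os09g0368200, Os06g0146600, Os10g0344000, Os09g0344400, Os03g0757600 and Os06g0147300. Their mean net vanadium signals lay between 913 for Os06g0147300 and 2298 for Os04g0179700. Brightness differs between probes for reasons other than transcript amount, so this order ranks spots and not transcripts. In the plot of the 15 loci the treatments do not overlap at any locus, which their choice by detection and signal largely fixed. Over all tested loci 8.29% were higher under vanadium without overlap.

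**Figure D1:**
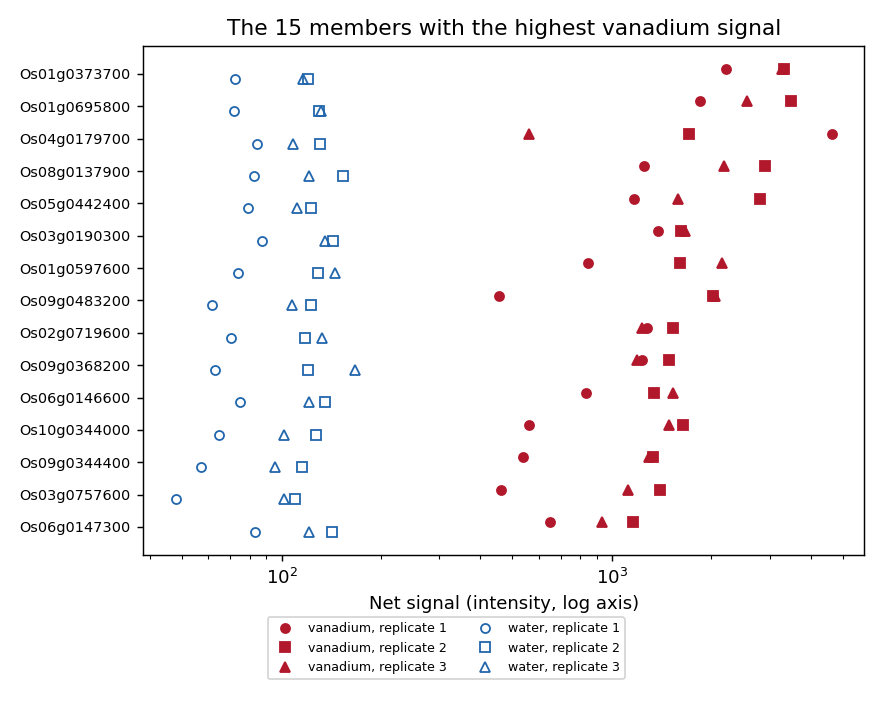
Net signal (scanner intensity, log axis) of the 15 members with the highest vanadium signal, one point per array, with vanadium above water in each row. All vanadium points lie above 450 and all water points below 170, and Os04g0179700 spreads from 562 to 4625 under vanadium.

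Net vanadium signals of most members were modest. Over the 207 members, the lowest mean was 151, the median 253 and the highest 2936. In water the corresponding means were 70.2, 103 and 132. Only 13 members reached 1000 under vanadium, 71 reached 300, and 136 lay below 300. Net signals of the 2 treatments did not overlap between arrays at 151 of the 207 members, while they overlapped at 56. Across all 21095 loci tested, 8.29% were higher under vanadium without overlap, and since the rule used these signals nothing is read from the difference.

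**Figure D2:**
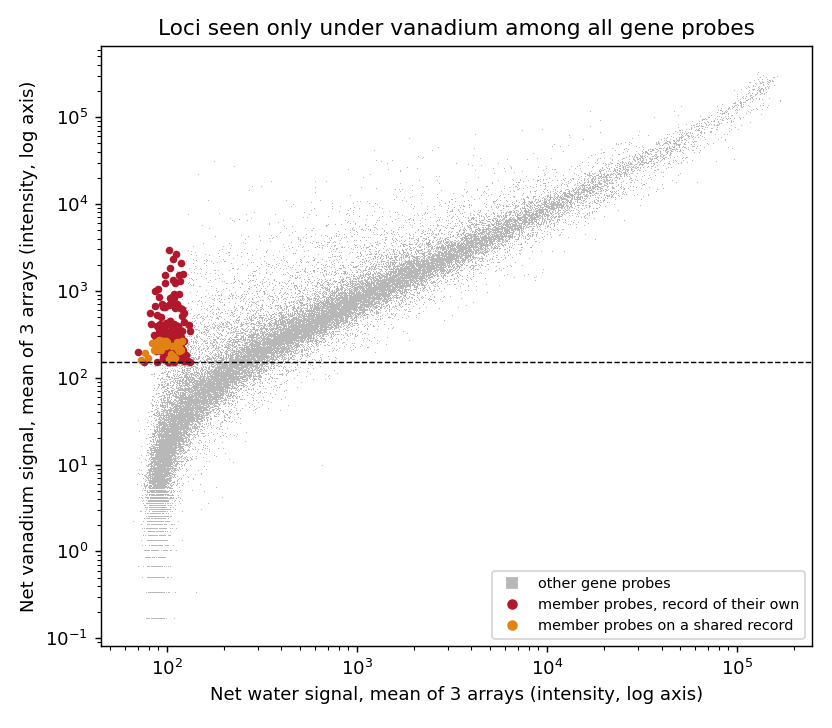
Mean net signal over 3 arrays under vanadium (vertical, intensity, log axis) against water (horizontal, intensity, log axis) for 41358 gene probes with both means above 0, with the minimum of 150 as a dashed line. Member probes form a narrow column between 70.2 and 132 in water and rise to 2936 under vanadium, and those on a shared sequence record all lie below 300.

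After background correction and dye normalization, each member was given a lower estimate of its fold difference. This estimate sets the mean normalized vanadium signal against the mean of, on each array, the higher of the probe's own water signal and the lowest water signal among probes well above background. It is written as "at least" for this floor only, leaves out the error of the mean and is open to dye bias. The median over members was at least 3.11-fold higher under vanadium, with a range from 1.85 to 29.2. At 203 of 207 members it was 2-fold or more, against 8.68% of all tested loci, a contrast that the rule fixed. It reached 4-fold at 56 members, 8-fold at 20 and 16-fold at 5. Without replicate 3, 91 members reached 4-fold and 8 reached 16-fold. With the 5th percentile of water signals well above background as the floor, the median was 2.25-fold and 149 members kept 2-fold or more.

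The 10 members with the highest lower estimates were the first 10 by signal. Os01g0373700 was at least 29.2-fold higher, Os01g0695800 at least 25.1-fold, Os08g0137900 at least 18.7-fold, Os05g0442400 at least 17.5-fold and Os04g0179700 at least 16.9-fold. The value of Os04g0179700 rests on replicate 1, without which it was 7.86-fold, against 18.9-fold without replicate 2 and 32.3-fold without replicate 3. No other of the 10 moved by over 1.5 times with 1 array left out. Os03g0190300, Os01g0597600, Os02g0719600, Os09g0368200 and Os09g0483200 lay between 12.7-fold and 14.9-fold. The 4 members below 2-fold were Os09g0400500 at 1.85, Os11g0112200, Os03g0788700 and Os01g0967700. They were named because they fell outside the rest, after their values were seen.

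**Figure D3:**
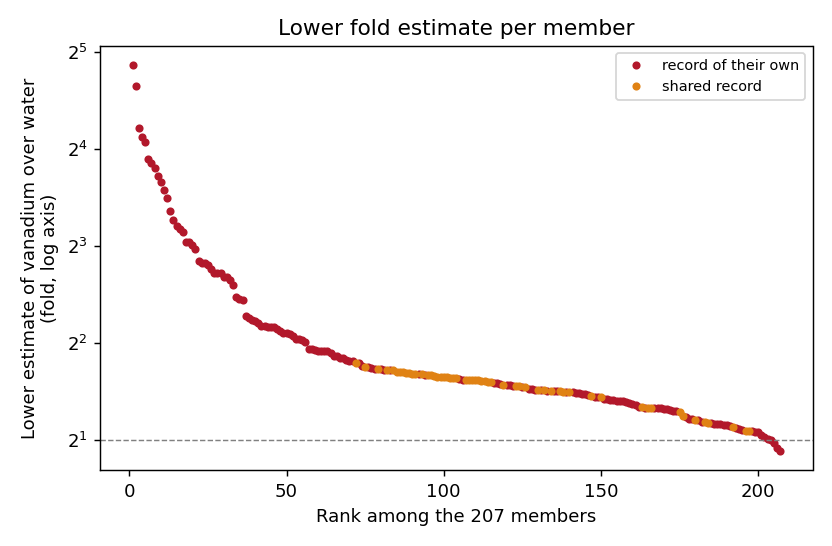
Lower estimate of vanadium over water (fold, log axis) for each of the 207 members in order of rank, with 2-fold as a dashed line. 5 members exceed 16-fold, most lie between 2-fold and 4-fold, and members on a shared record all lie between 2.14 and 3.47.

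The fitted log2 ratios of vanadium over water had a median of 1.87 over the members, against 0.02 over all tested loci. At 7 members, Os06g0649000 among them, the fit used a brighter probe of the locus than the one that met the rule; with the rule's own probes the median was 1.87 as well. Over all loci limma called 6281 higher (29.8%, adjusted p under 0.05), 1869 of them by 2-fold or more (8.86%), and 4497 lower. These calls were 4886 higher and 6910 lower with the log ratio that the scanner software computes, which shifted the median of all loci to -0.12. The size of the members' ratio depended on the processing. Its median was 4.37 with the scanner log ratio, 4.49 above the median of all loci under that scaling, and 2.85 with a normexp offset of 0. The scanner log ratio also has its own dye normalization, and which step moved the median was not tested. All 207 members had a ratio above 0 under each of these settings, a direction that their choice largely fixed.

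The 207 members did not rest on 207 separate sequences. Each probe name carries the record of a cDNA or an EST, a partial read of a cDNA. A single EST record stood behind 46 members, a further one behind 7 and another behind 2, so 55 members lay on shared records and 152 on a record that no other member used. Counting each shared record once left 155 entries. On the whole array 19 records were shared by 10 or more loci, and only 1 of them had any member.

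The largest of these records was carried by 50 probes for 50 loci on all 12 chromosomes, placed across 514 rows of the array. Its probes had median net signals of 187.5, 359 and 191 under vanadium on replicates 1, 2 and 3, against 64, 108 and 110.75 in water. The 50 probes read nearly alike: the coefficient of variation of their vanadium signals was 10.5%, 16.7% and 20.7% on the 3 arrays. For the 24 probes that were each printed 10 times, the median coefficient of variation between copies of 1 probe was 12.1%, 14.1% and 17.9%. The spread between these 50 loci was thus close to that between copies of 1 probe. Probe sequences were not used here, so cross-hybridisation was not tested, and 46 separate rises cannot be told apart from 1 rise that all these probes read. The 4 loci of the record that are no members had a water signal well above background on 1 array.

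**Figure D4:**
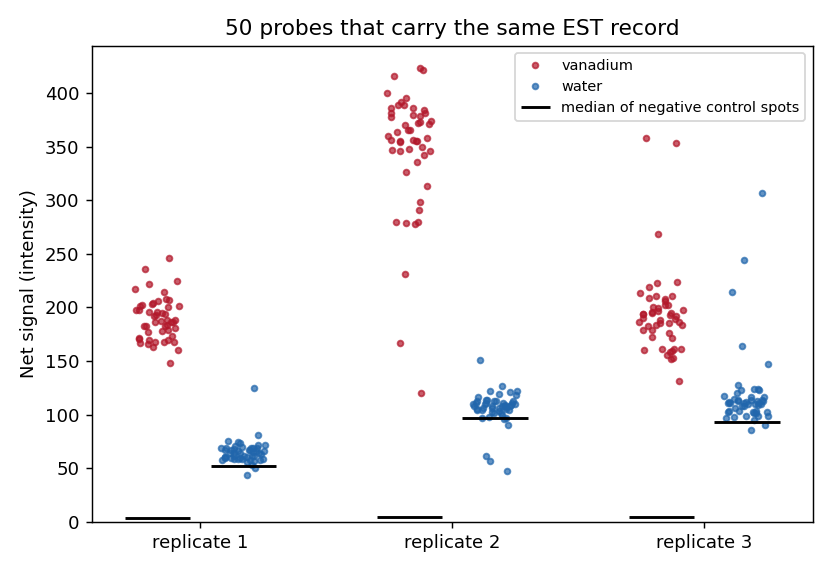
Net signal (scanner intensity) of the 50 probes that carry the same EST record, on each array, with vanadium left of water. Black bars mark the medians of the negative control spots. The vanadium medians are 187.5, 359 and 191 and the water medians 64, 108 and 110.75, close to the controls of that channel.

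The second record was carried by 8 probes, with median net signals of 97.75, 296.75 and 225 under vanadium, against 72.25, 139 and 124.5 in water. Its members were at least 2.14-fold to 2.53-fold higher, and the treatments overlapped between arrays at all 7. On the largest record they did not overlap at 45 of 46. The record behind the remaining 2 members, 1 on chromosome 11 and 1 on chromosome 12, gave medians of 83.5, 226 and 182.5 under vanadium, against 65.5, 123.5 and 122.25 in water. The first record was least raised on replicate 3, where its members had a median log2 ratio of 1.43, against 2.08 and 2.10 on replicates 1 and 2. For the second record these medians were 1.22, 1.46 and 1.38 on replicates 1, 2 and 3.

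Members measured by several probes give a look within a locus. There were 29 such members, and 178 had 1 probe. At 6 members 2 probes met the rule. At Os05g0530400 they read nearly alike, with 294.5, 387 and 341.5 for one and 278, 327.5 and 276.5 for the other under vanadium, against 75.5, 144 and 107 and 69.5, 118 and 125 in water. Its other 2 probes missed the rule and were dimmer, with mean net vanadium signals of 93.3 and 132, against 95.5 and 104 in water. Elsewhere the 2 rule probes had mean net vanadium signals of 2297.5 and 356.5 at Os04g0179700, 632.5 and 316 at Os01g0723000, and 246 and 176 at Os11g0684000. They were closer at Os01g0702500, with 258 and 248, and at Os07g0418500, with 170 and 152. In 4 of the 29 every probe met the rule: Os01g0723000, Os04g0179700, Os07g0418500 and Os11g0684000. The other 25 had 36 probes outside the rule, of which 34 had a higher mean log2 ratio under vanadium than 0, 23 were seen in red on every array and 7 on none. At these 7 the ratio lay only between -0.11 and 0.20. Outside these 7, the second probe of Os06g0728300 had a mean log2 ratio of -0.05. Its net signals were 18, 639.5 and 61.5 under vanadium, against 78, 785 and 157 in water. That probe was well above background in water on 1 array, so this member was not raised by both of its probes. The share of all gene probes with a ratio above 0 was not computed, so nothing is read from the count of 34. Water was seen by another probe at 14 members, on 1 array for 7 probes and on 2 arrays for 9. Without these 14 the set holds 193 loci.

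Some of these loci, picked out after their values were seen, show how far the probes of a locus can differ. Os09g0555500 entered through a probe with net signals of 203, 391 and 295.5 under vanadium, against 80, 117 and 112.5 in water. A brighter probe of it had 5324, 1278 and 4706 under vanadium, against 499, 144.5 and 278 in water, and was well above background in water on 2 arrays. Net signals of both probes were thus higher under vanadium, but the locus was seen in water by 1 of them. The fit of this locus used the dimmer probe, because an outlier spot left the brighter one without a ratio on at least 1 array. Values of the brighter probe are therefore less certain. Os06g0649000 had 823.5, 999 and 909 under vanadium, against 70, 136 and 119 in water. Its second probe had 794, 1397.5 and 1317.5 under vanadium, against 89.5, 178.5 and 141 in water, with water well above background on 2 arrays. Here both probes read alike under vanadium, and the mark in water separates them.

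At other loci a further probe saw little or nothing. Os03g0757600 had 462, 1401 and 1120.5 under vanadium, against 48, 109.5 and 102 in water. Its second probe stood at 40, 42 and 29.5 under vanadium, against 77, 107.5 and 102.5 in water, and was well above background in red on 1 array. Os01g0314000 met the rule at 254.5, 522 and 179.5 under vanadium, against 76, 101 and 120.5 in water, while 2 further probes of it were well above background in neither channel on any array. The cause of such differences was not tested.

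The members were less even across arrays than tested loci as a whole. The standard deviation of a member's log2 ratio over the 3 arrays had a median of 0.31, against 0.14 over all tested loci, and the part of the dim water signals in this spread was not tested. Member medians of the normalized log2 ratio were 2.05, 2.02 and 1.57 on replicates 1, 2 and 3. By this ratio all 207 members were higher on every array, a direction that their choice largely fixed. Net signals, which are not on one scale between the dyes, were lower under vanadium on some arrays. An example is Os01g0241400 on replicate 1, with 47 under vanadium against 63 in water. The ratio was highest on replicate 1 at 102 members, on replicate 2 at 69 and on replicate 3 at 36. These values count the 46 members of the largest shared record singly, and all 46 had their lowest ratio on replicate 3. Over the 152 members on records of their own, the medians were 2.08, 1.94 and 1.71. Of these members 75, 41 and 36 were highest on replicates 1, 2 and 3. Replicate 1 lay on a slide of its own and replicates 2 and 3 on another, so that a difference of replicate 1 cannot be told apart from one of slide. At 18 members replicate 1 exceeded the mean of the others by more than 1 on the log2 scale, and at 2 members, Os09g0483200 and Os03g0233000, it fell short by more than 1. Over all 21095 tested loci these counts were 128 and 55.

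Os04g0179700 was the most uneven member. Its net signals were 4625, 1705.5 and 562 under vanadium on replicates 1, 2 and 3, against 84, 131 and 108 in water, and its log2 ratios were 6.32, 3.75 and 2.77 (mean 4.28 ± 1.83, SD, n = 3 arrays). Its second probe, which also met the rule, was dimmer but uneven in the same order, at 679, 283.5 and 107 under vanadium, against 65, 148 and 126.5 in water. Water was low in every replicate by both probes, and the unevenness lay in the vanadium channel.

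Os12g0257600 had 534, 137 and 82 under vanadium, against 80, 121 and 117.5 in water, with log2 ratios of 3.23, 0.96 and 0.63. On replicates 2 and 3 its vanadium signal was marked as well above background but was close in number to its water signal. Its place in the set rests on replicate 1, since its mean net signal of 251 falls under the minimum without that array. Os09g0483200 ran the other way, with 455.5, 2026.5 and 2054.5 under vanadium, against 61.5, 122.5 and 107.5 in water. Os08g0137800 was the most even, with 123.5, 274 and 217.5 under vanadium, against 59, 115 and 106 in water, and a log2 ratio of 1.70, 1.70 and 1.66. Os06g0366800, on the second shared record, was about as even, with log2 ratios of 1.27, 1.24 and 1.21.

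**Figure D5:**
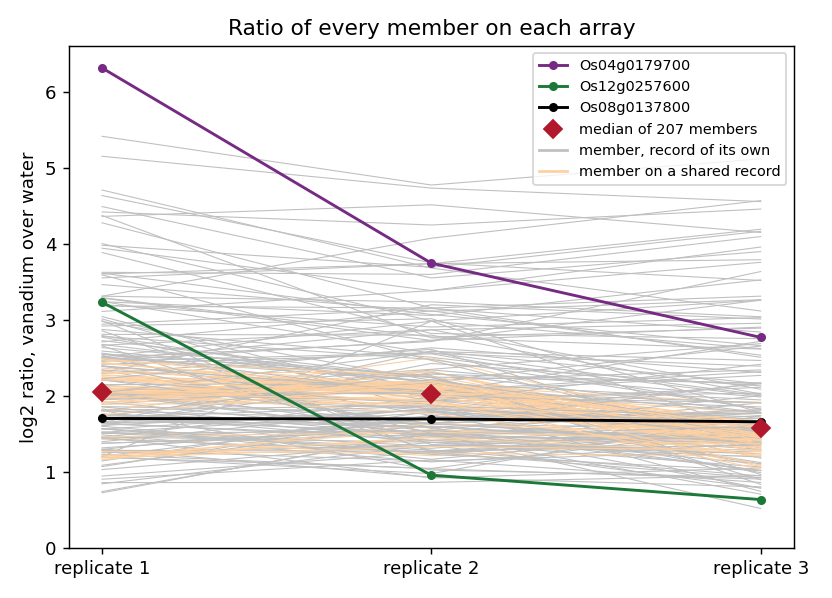
Normalized log2 ratio of vanadium over water on each array for every member, with lines that join the values of 1 locus (replicates have no order) and diamonds at the member medians of 2.05, 2.02 and 1.57. Os04g0179700 and Os12g0257600 are far higher on replicate 1 than on the others, while Os08g0137800 stays near 1.7.

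Which array is left out changed the set more than the median ratio. On replicates 2 and 3 alone the rule gave 380 loci, of which 204 are members. Without replicate 2 it gave 192 loci, with 179 of the members, and without replicate 3 it gave 217, with 193 of the members. In the water channel the 5th percentile of spots well above background was 182 and 196.5 on replicates 2 and 3, against 99 on replicate 1, and the part of this floor in the larger number was not tested.

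At the edge of the signal minimum the loci were alike. Just inside it were Os06g0486300 at a mean net vanadium signal of 150.8, against 76.2 in water, and Os02g0211500 and Os08g0508800, both at 151.3, against 101 and 103 in water. Just outside it were Os01g0692100 at 149.2 under vanadium, against 111 in water, Os01g0248500 at 148.5 against 109, and Os07g0537900 at 148 against 115. The lower estimates of the first 3 were 2.05 to 2.23 and those of the other 3 were 1.97 to 2.03. A further 312 loci met every other clause but stayed below 150.

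Members were spread over all 12 chromosomes. They made up 0.697% of loci on the array, with the highest shares on chromosomes 11 (0.987%), 6 (0.962%), 8 (0.938%) and 1 (0.935%) and the lowest on chromosome 10 (0.189%, 3 members). Without members on shared records the overall share was 0.512%. Chromosome 1 then had the highest share, at 0.864% with 36 members, while chromosome 11 stood at 0.548%. The position of chromosome 11 in the first order thus came from probes on shared records.

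Few members were neighbours. Only 14 lay next to another member in the order of loci on the array, in 7 pairs, and no run was longer. Os01g0695800 and Os01g0695900 formed the brightest pair, at least 25.1-fold and 4.69-fold higher. Os06g0698300 had net vanadium signals of 263, 703.5 and 601.5, against 56.5, 108.5 and 101.5 in water, and its neighbour Os06g0698400 had 319, 501 and 261.5, against 64, 107 and 108.5 in water. Os08g0137800 and Os08g0137900 were at least 2.64-fold and 18.7-fold higher. The remaining pairs were Os06g0200600 with Os06g0200700, Os02g0211200 with Os02g0211500, and 2 pairs in which 1 locus lay on the shared record of 46 members. Whether neighbours cross-hybridise was not tested.

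The kind of record behind the probes differed from the array largely, but not only, through the shared ones. Of the 213 member probes 54.9% were designed to an mRNA, against 77.1% of all gene probes, and 26.8% to a record of the class named COMBINER, against 6.25%. Without the shared records these shares were 74.1% and 3.80%, against 79.2% and 4.13% of gene probes on records of 1 locus. A further class, COMBINER_EST, made up 18.3% of member probes, against 16.6% of all gene probes. Without the shared records its share was 22.2%, against 16.6% of gene probes on records of 1 locus. Among the 111 members measured by an mRNA probe, the name placed 108 of the probes in the coding sequence and 3' untranslated region, 2 in an untranslated region and 1 in the coding sequence.

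Lists of loci written from general knowledge, which the files do not annotate, held 4 members among 109 loci (3.67%), against 0.697% of all loci on the array. The lists were drawn up with earlier results of these data known, so nothing is read from this difference. There was 1 member among 15 loci listed for diterpenoid phytoalexins, the antimicrobial compounds of rice, 1 among 18 for jasmonate synthesis and its JAZ repressors, 1 among 17 WRKY transcription factors and 1 among 9 efflux pumps of the PDR type. In the order of these lists, the 4 members were Os04g0179700, Os08g0508800, Os06g0649000 and Os08g0384500. Os08g0384500 had 552, 861.5 and 712.5 under vanadium, against 79, 138 and 122 in water, and Os08g0508800 lay at the edge of the signal minimum. None was found among 22 tau glutathione transferases, which conjugate toxic compounds, 11 pathogenesis-related proteins, 10 heat shock proteins and 7 LEA proteins. In limma's fit (adjusted p under 0.05) 29.8% of all loci were higher and 21.3% lower. Of the lists, 15 of 16 tested jasmonate loci, 8 of 8 PDR loci, 16 of 19 glutathione transferases and 12 of 16 WRKY loci were higher, with median log2 ratios of 1.96, 2.07, 1.47 and 1.54. Of these lists 2 WRKY loci and 1 glutathione transferase were lower. Nearer the share of all loci were the pathogenesis-related proteins, with 4 of 10 higher (median 0.77), and the heat shock proteins, with 3 of 8 higher and 2 lower (median 0.08). Of the 7 LEA loci only 4 were tested, and all 4 were higher, with a median of 1.71. Of the diterpenoid loci 7 were not seen in water on any array and 7 were seen under vanadium on all, and 5 of 7 tested were higher, with a median of 1.54. A locus could enter the fit through the vanadium channel alone, and the lists were drawn up with earlier results known. Nothing is therefore read from the calls within the lists either.

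Loci listed as markers of other tissues were no members: 0 of 5 for green shoot and 0 of 5 for seed storage. Members made up 0.697% of all loci on the array, so nothing is read from these counts. Of the green shoot loci none was unseen in water on every array, and 2 were seen under vanadium on all. The 2 tested were called neither higher nor lower, with a median log2 ratio of -0.55. Of the seed storage loci none was seen under vanadium on all arrays and 4 were not seen in water on any. All 5 loci listed for root were seen on all arrays under vanadium and none was unseen in water. In limma's fit 3 of them were lower and 1 was higher, with a median log2 ratio of -1.02, where 21.3% of all loci were lower. With bulk RNA, fewer cells of a type and less RNA per cell cannot be told apart.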

How the data were processed

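The deposited array files hold the intensity of each spot and of its local background in both channels, without normalization, made with Agilent Feature Extraction 10.7.1.1, per the file headers. The same deposited files hold marks for signals well above background and a log10 ratio of dye-normalized signals. Values of the authors' deposited table are log2 ratios: within 0.001 they matched the processed red signal over the processed green one at 100% of the 41865 probes printed once. Its medians were -0.05, -0.19 and -0.21, so it is not centred, and its direction is vanadium over water.

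Membership was read from median signals and marks. For ratios, background was corrected by normexp (offset 50) and each array was loess-normalized, giving control spots weight 0 (limma 3.58.1, R 4.3.3). Outlier spots were left out, spots of a probe averaged, and the brightest probe of a locus used if well above background in red or in green on all 3 arrays, which left 21095 loci. The mean log2 ratio was tested against 0 with limma (lmFit, eBayes, 2-sided, Benjamini-Hochberg, 0.05) to give shares over all loci. Normalization and the fit were tried on simulated data, built from the same signal level in both channels plus known changes. Those data lacked the unequal floors of the dyes. The membership rule and the lower fold estimates were not tried on them. The pairing of vanadium with water comes from the arrays, each of which holds both. Lower fold estimates used single channels after Aquantile normalization between arrays. With 3 arrays, their number limits the precision.

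Named loci were the 15 with the highest vanadium signal, the 10 with the highest lower estimate, 3 on each side of the minimum, those on lists, those in runs of 3 or more neighbours, of which there were none, and the 2 most and 2 least even. Other loci were chosen after their values were seen. The members and lists were chosen with earlier results of these data known. Alternatives are given in the closing section.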

Additional observations from a re-analysis of the deposited data

How the results depend on the processing

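The number of members was 71 at a minimum of 300, 58 when water had to miss the laxer mark of a signal above background on every array, and 192 to 380 with 1 replicate left out, the highest without replicate 1. It lay between 155 and 301 with the other choices tried. Counting shared records once (155) and the median over members on unshared records (log2 ratio 1.89) were chosen after the data were seen. At a minimum of 300 the exchanged rule gave 0 loci. The median log2 ratio of members was 2.85 with an offset of 0, 4.37 with the scanner log ratio and with the authors' table, and 1.75 to 2.06 with 1 replicate left out. The median lower estimate was 2.25-fold with a floor at the 5th percentile, where 149 members kept a value of 2-fold or more, and 2.77 to 3.85 with 1 replicate left out. Over all loci, 4073 were higher with median centring. Fitting the 6 channels with no replicate block, so without the pairing within arrays, gave 3389 higher and 1493 lower. With the scanner log ratio 6910 were lower. With 1 replicate left out, 4950 to 5685 were higher, 2881 (without replicate 3) to 3609 lower and 1795 to 1964 higher by 2-fold or more. The cause of these differences was not tested. For the named loci, 117 recomputed ratios moved by no more than the spread of the arrays, 67 moved by more, and none changed sign. Those that moved by more all came from an offset of 0, the scanner log ratio or the authors' table. The scanner ratio and the authors' table gave equal values at each named locus but were counted separately. Ratios with the rule's own probe, counted among the 117, differed from the fit only at Os06g0649000. Dim water signals limit every ratio here, since the control level of a member is known only as a bound.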
